A study of Mus musculus with 4 samples.

Results

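The genes described here encode the proteins of the cytosolic ribosome. They were chosen by symbol: every gene in the count tables named Rpl or Rps followed by a number, with an optional a, x or y, and in addition Rplp0, Rplp1, Rplp2 and Rpsa. The rule found 76 of the 25239 gene symbols, 46 for the large subunit and 30 for the small subunit, on 19 chromosomes. It used names alone and no measured value.

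The libraries were made from polyadenylated RNA of mouse embryonic stem cells that carry floxed alleles of Ogt (Ogt fl/fl). Ogt encodes the only enzyme that attaches O-linked N-acetylglucosamine to nuclear and cytosolic proteins. The Ogt iKO group (2 libraries) was cultured with 4-hydroxytamoxifen (4-OHT) for 6 days to delete Ogt, and the control group (2 libraries) had the same genotype and no 4-OHT. All cultures grew on mitomycin C-treated mouse embryonic fibroblast feeders with LIF and serum replacement, and cell sorting was meant to remove the feeders. The labels name CD90.2 as the marker of the stem cells and CD326 as the marker used against feeders, although CD326 (Epcam) is a stem cell marker and CD90 (Thy1) is made by fibroblasts, so the gate is uncertain as described. In the treated cultures the sort also selected cells positive for a yellow fluorescent protein, so deletion, drug and that selection cannot be told apart. No group received 4-OHT with Ogt intact. The sources used here do not say whether the libraries of a group came from separate cultures, so p-values measure only the spread between these libraries, which may be technical.

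Each ribosome holds, as a rule, 1 copy of nearly every ribosomal protein, bound to ribosomal RNA in a small subunit that reads the mRNA and a large subunit that joins amino acids. Growing cells such as embryonic stem cells make these proteins in large amounts. Most of their mRNAs begin with a C and a run of pyrimidines, the 5' terminal oligopyrimidine (TOP) motif, through which the growth-regulating kinase complex mTORC1 and the RNA-binding protein Larp1 control their translation and stability.

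Start sites of members and relatives are shown so that the pyrimidine runs near them, and their absence, can be seen. Each line gives 20 bases before and 20 bases from the transcription start of the gene's RefSeq promoter entry (assembly GRCm38.p6). Bases run 5' to 3' on the gene's strand, with the longest unbroken run of C and T in capitals. For Rpl35a and Rpl39l the start used lies inside the gene spans given below, which begin at 33056453 and 10170197. Such a run is a TOP motif only if transcription begins in it. The runs of Rpl4, Rps25, Rpl41, Rpl10l and Rpl39l end before the start used, though that of Rpl39l lies within its gene span. The first 5 genes fell in Ogt iKO cells, the next 2 did not, Rpl41 fell least among the members of at least 1000 mean counts, and the last pair, Rpl10l and Rpl39l, are paralogs that rose.
Rpl4 (chr9:64173367-64173406, plus strand): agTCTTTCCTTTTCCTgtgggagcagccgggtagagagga
Rpl35a (chr16:33056462-33056501, plus strand): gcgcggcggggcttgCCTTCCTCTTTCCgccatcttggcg
Rps10 (chr17:27635225-27635264, minus strand): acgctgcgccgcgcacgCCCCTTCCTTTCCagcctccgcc
Rplp2 (chr7:141447631-141447670, plus strand): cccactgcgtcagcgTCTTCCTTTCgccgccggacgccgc
Rps6 (chr4:86857348-86857387, minus strand): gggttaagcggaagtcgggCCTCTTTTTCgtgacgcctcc
Rpl15 (chr14:18270967-18271006, minus strand): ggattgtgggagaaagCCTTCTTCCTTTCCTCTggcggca
Rps25 (chr9:44407694-44407733, plus strand): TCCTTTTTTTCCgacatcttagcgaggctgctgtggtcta
Rpl41 (chr10:128549149-128549188, minus strand): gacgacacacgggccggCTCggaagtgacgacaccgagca
Rpl10l (chr12:66284382-66284421, minus strand): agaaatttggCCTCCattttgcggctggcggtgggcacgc
Rpl39l (chr16:10170208-10170247, plus strand): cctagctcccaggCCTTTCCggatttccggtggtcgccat

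The targeted gene and the cell markers were examined first. Ogt had 2963 and 3108 counts in the control libraries and 437 and 389 in the Ogt iKO libraries, 12.8% of the control level in CPM (counts per 1000000 counts). Library totals ran from 14668489 to 16504204 counts, and 3 counts, the limit that a count of 0 allows, equalled 0.182 to 0.205 CPM, for counting error only. Of 12 stem cell markers, 11 fell at an adjusted p under 0.05 with edgeR (median log2 fold change -0.73, Ogt iKO over control) and none rose, with Klf4 at -1.82, Sox2 at -1.59, Nanog at -1.47 and Tdgf1 at -1.13. Their summed level was 5300 and 5308 CPM in the control libraries and 3376 and 3774 CPM in the Ogt iKO libraries. Of 24 markers of feeder fibroblasts, 8 rose, 0 fell and 16 were not called, beside 33.2% of all genes called higher and 32.0% lower, and none was at 0 counts in every library. Tagln (log2 fold change 2.6001), Acta2 (1.72), Pdgfrb (1.61) and Twist1 (1.45) had the smallest adjusted p among them. Ogt iKO replicate 1 stood apart: its fibroblast markers summed to 6111 CPM, against 2659 CPM in Ogt iKO replicate 2 and 2590 and 2952 CPM in the controls. Without that library 8 fibroblast markers rose and 15 fell (median -0.50), and 11 of 12 stem cell markers fell (median -0.66), beside 30.3% of all genes higher and 29.9% lower. Epcam had 5376 and 4704 counts in the controls and 4794 and 4452 in Ogt iKO cells, and Thy1 had 241 and 240 in the controls and 437 and 138 in Ogt iKO cells. The part of either marker list in the results below was not tested. Most counts of the members and lists below are given with and without Ogt iKO replicate 1. In bulk RNA, fewer cells of a type and less RNA per cell cannot be told apart.

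Ribosomal protein mRNAs took a smaller part of the RNA in Ogt iKO cells, in both subunits. Members held 1.99% and 1.96% of all gene counts in the control libraries, and 1.38% and 1.48% in the Ogt iKO libraries. The groups did not overlap, with means of 1.97% ± 0.0209 (SD, n = 2) and 1.43% ± 0.0668 (SD, n = 2), a ratio of 0.725. Large subunit genes held 1.17% and 1.15% in the controls and 0.8004% and 0.8608% in Ogt iKO cells. Small subunit genes held 0.820% and 0.805% in the controls and 0.582% and 0.617% in Ogt iKO cells. An exact two-sided permutation test of 2 libraries against 2 gave p = 0.333 for the share, the smallest value this design allows. A share depends on all other genes, and without the 100 genes of most counts, which include 7 members, the difference was -0.280 percentage points in place of -0.543, with a ratio of 0.713. The difference in share over all genes was -0.496 percentage points when Ogt iKO replicate 1 was left out.

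Counts summed over the large subunit were 1.42 and 1.43 times those of the small subunit in the control libraries. In Ogt iKO cells the ratio was 1.37 and 1.40, lower in both libraries than in either control, with a mean difference of -0.0435 (exact two-sided permutation p = 0.333). This ratio is taken within a library and does not depend on scaling between libraries. The difference was -0.0324 when Ogt iKO replicate 1 was left out.

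**Figure D1:**
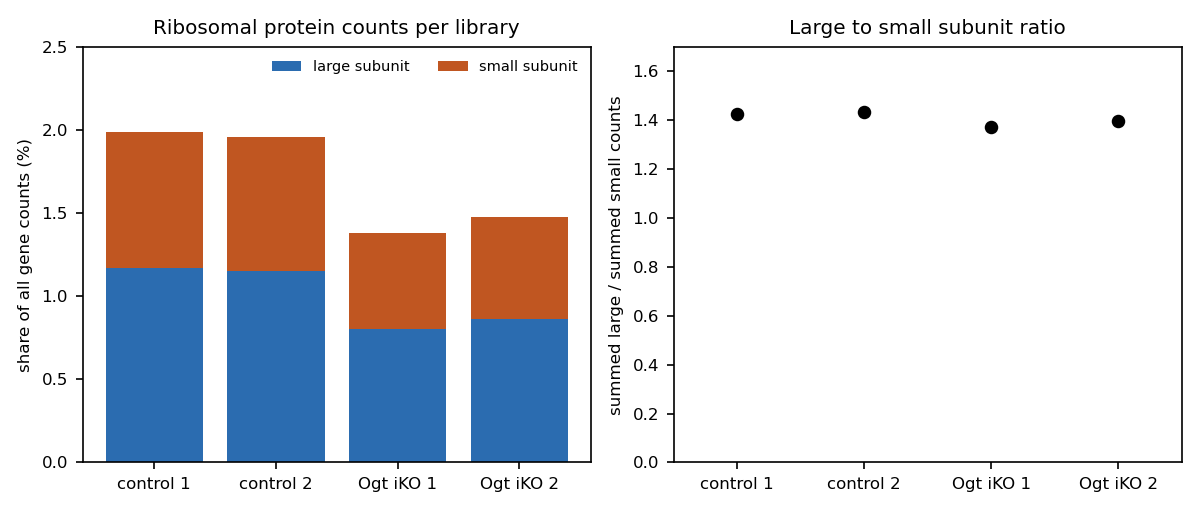
Left, the share of all gene counts (percent) in large and small subunit genes, stacked, for each of the 4 libraries. Right, summed large subunit counts over summed small subunit counts in each library. The stacked share is 1.99% and 1.96% in the controls and 1.38% and 1.48% in Ogt iKO cells, and the ratio lies between 1.37 and 1.43 in all 4 libraries.

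Gene by gene, ribosomal protein mRNAs fell in Ogt iKO cells and none rose under the scaling used here, the trimmed mean of M-values (TMM). Of the 76 members, 73 had enough counts to be tested (45 large, 28 small), and 54 fell at an adjusted p under 0.05 (edgeR's quasi-likelihood test, Benjamini-Hochberg adjustment over 14525 genes). The background was high: 32.0% of all genes tested were called lower and 33.2% higher by the same rule, 65.3% in either direction. Among the large subunit genes 31 of 45 fell, and among the small subunit genes 23 of 28 fell. The count of members that rose was 0 with edgeR, 0 at an unadjusted p under 0.05 and 0 with DESeq2, which called 49 lower. The median log2 fold change of the members tested was -0.61 (large -0.63, small -0.60), against 0.0237 for all genes tested. Those that fell stood at 44.6% to 83.9% of their control level.

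The scaling shifts these values together. TMM set factors of 1.06 for both Ogt iKO libraries and of 0.938 and 0.948 for the controls. With library totals alone the median of all genes moved from 0.0237 to 0.193, and that of the members from -0.61 to -0.44 (large -0.46, small -0.44). By library totals 48 members fell, against 22.6% of all genes, and 2 rose, Rpl15 and Rpl23a, against 42.1% of all genes. Leaving the ribosomal protein genes out of the TMM factors kept all 54 calls and added Rps27a. Without Ogt iKO replicate 1, 50 members fell, 1 rose (Rps25) and the median was -0.55, beside 29.9% of all genes lower and 30.3% higher.

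The fall was seen in every pair of libraries. Over the 4 pairings of an Ogt iKO with a control library, the median member difference was -0.62, -0.63, -0.55 and -0.55 on the log2 scale, and 66 to 71 of the 73 members lay below 0. Between the libraries of a group it was -0.0874 (Ogt iKO replicate 1 minus 2) and 0.0520 (control replicate 1 minus 2). For 66 of 73 members both Ogt iKO libraries lay below both controls, for 2 above, and for 5 the groups overlapped. Among all genes tested, 40.9% had both Ogt iKO libraries below and 42.3% above. The log2 fold changes of 49 of the 73 members lay within 0.2 of their median.

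**Figure D2:**
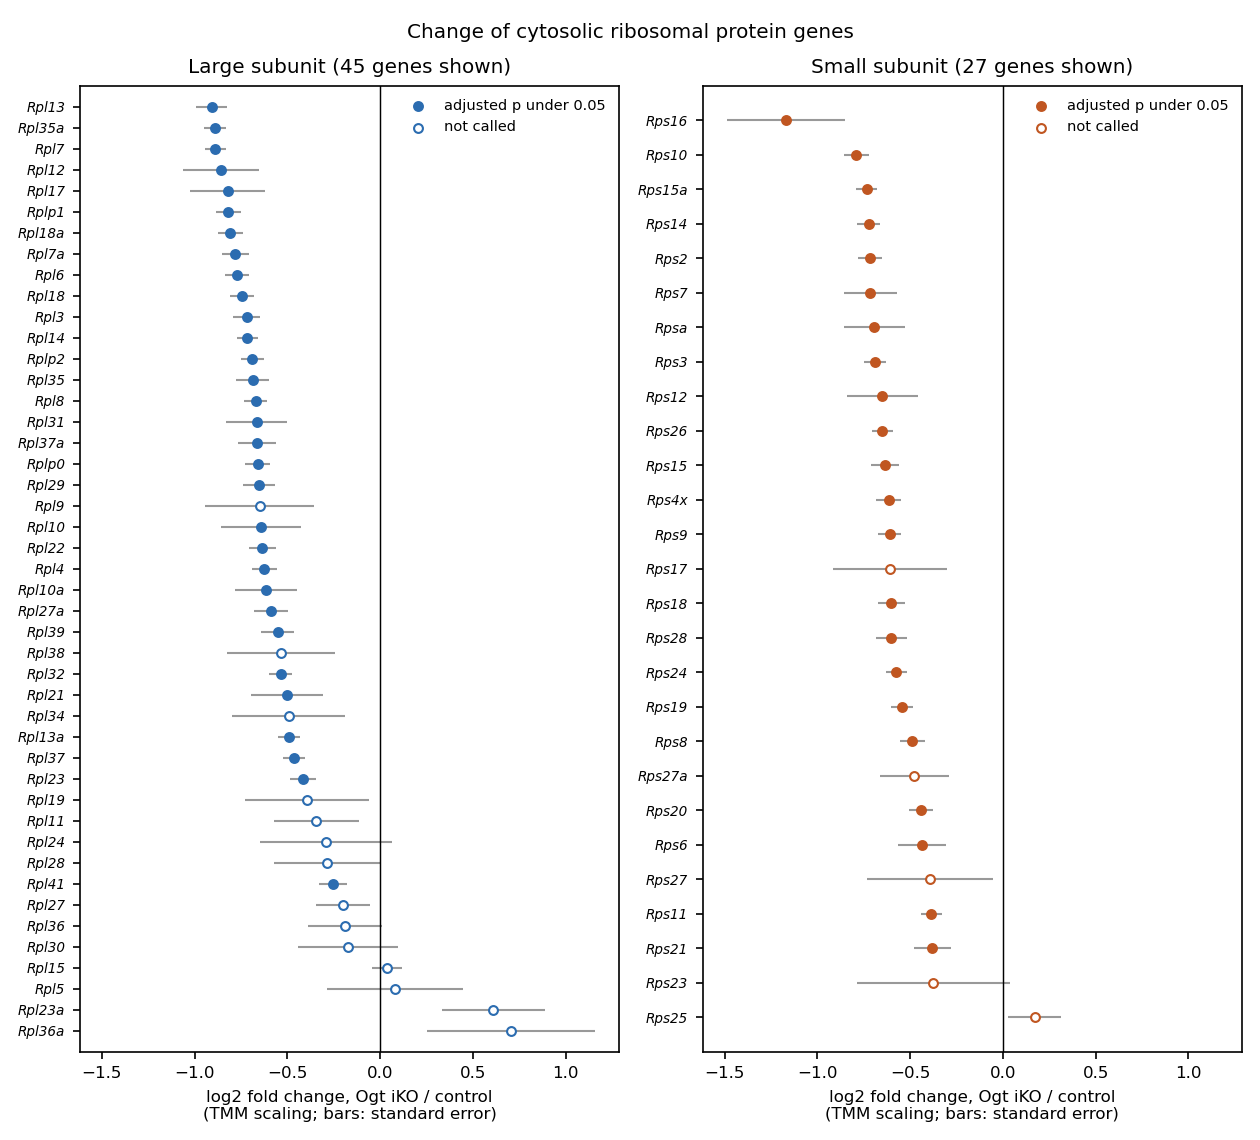
Log2 fold change of tested members, Ogt iKO over control with TMM scaling, for 45 large (left) and 27 of the 28 tested small (right) subunit genes. Points are edgeR estimates, bars are 1 standard error, filled points had an adjusted p under 0.05. Filled points all lie left of 0, and the 5 points to the right of 0 (Rpl15, Rpl5, Rpl23a, Rpl36a and Rps25) are open.

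Calls were more frequent among members of more counts, with exceptions both ways. Mean counts per library ran from 0.25 to 35808 over the 76 members, with a median of 760. All 35 members with a mean of at least 1000 counts fell, from -0.89 (Rpl35a) to -0.25 (Rpl41), with a median of -0.64 and a median standard error of 0.0637. Their standard deviation was 0.148, and all 35 lay below 0 in each of the 4 library pairs. These members lie at a mean log2 CPM of at least 6, where 49.0% of all genes fell. Of the 35, 34 fell without Ogt iKO replicate 1 (median -0.56). Of the 41 members below 1000 counts, 38 were tested and 19 fell. Of all genes, 31.2% fell at a mean log2 CPM from 2 to below 6 and 11.4% below 2. Among the 19 members not called, 16 had a mean under 100 counts and 14 had a negative log2 fold change. In those 16 a missing call does not show that the gene was unaltered, since few counts were behind it. Rpl15, Rpl27 and Rps25, with more counts, were not called either, while Rps16, Rpl10, Rps12 and Rpl17 were called with means under 100 counts.

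Expression level also went with direction among all genes, and the members are read beside genes of like level. For mean log2 CPM from 6 to below 9, 26 of 26 members fell (median -0.64), and 47.6% of all 3922 genes there fell (median -0.14). At 9 or more, 9 of 9 members fell (median -0.63), beside 73.4% of 229 genes (median -0.37). From 2 to below 6, 18 of 23 members fell (median -0.64), beside 31.2% of 7235 genes (median 0.0339). Below 2, 1 of 15 members fell (median -0.37), beside 11.4% of 3139 genes (median 0.60). The member median was thus below that of all genes in each of the 4 ranges, by the least in the highest range. Over genes of mean log2 CPM of at least 6 as a whole, 49.0% fell. When Ogt iKO replicate 1 was left out, the members that fell numbered 9 of 9, 25 of 26, 16 of 23 and 0 of 15 from the highest range to the lowest, beside 70.7%, 44.5%, 29.7% and 10.3% of all genes. These ranges were chosen after the values were seen.

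**Figure D3:**
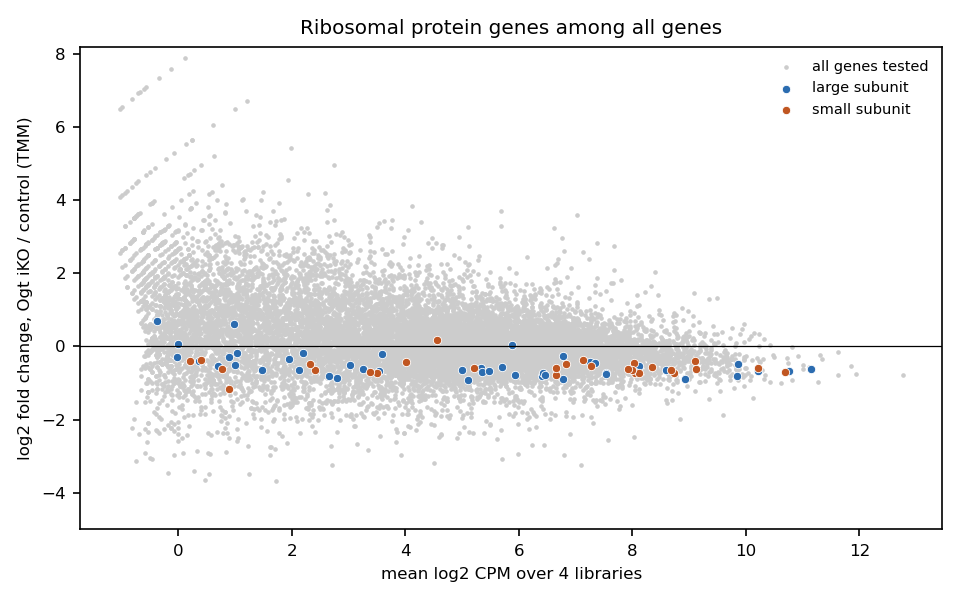
Log2 fold change (Ogt iKO over control, TMM) against mean log2 CPM over the 4 libraries for all 14525 genes tested, in grey, with large subunit genes in blue and small subunit genes in orange. The cloud of all genes tilts from above 0 on the left to below 0 on the right, and the 35 members at a mean log2 CPM of at least 6 all lie below 0.

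The stalk of the large subunit is a flexible arm that recruits elongation factors, and 3 of its 4 genes were deeply counted. Rplp0, the base of the stalk, had 23530 and 21382 counts in the controls and 15214 and 14793 in Ogt iKO cells. Rplp1, which pairs with Rplp2 at its tip, had 17937 and 18228 counts in the controls and 10709 and 10932 in Ogt iKO cells. Rplp2 had 5153 and 4926 counts in the controls and 3320 and 3278 in Ogt iKO cells. In each of these the Ogt iKO libraries lay below both controls by far more than the replicates differed. The log2 fold changes were -0.66 for Rplp0, -0.82 for Rplp1 and -0.69 for Rplp2, with standard errors of 0.0624 to 0.0690. Rpl12, at the foot of the stalk, had 135 and 138 counts in the controls and 98 and 62 in Ogt iKO cells (-0.86). All 4 stalk genes fell, with a median of -0.75 (-0.68 without Ogt iKO replicate 1), beside 32.0% of all genes. At the level of Rplp0 and Rplp1 (mean log2 CPM of 9 or more), 73.4% of all genes fell. The share was 47.6% at that of Rplp2 (6 to below 9) and 31.2% at that of Rpl12 (2 to below 6).

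Scaled by exon length, the highest members were Rplp1, Rpl8, Rpl4 and Rplp0, at means of 1843, 1275, 1133 and 717.0 CPM per kb over all 4 libraries. Rpl4, a core protein that lines the exit tunnel for the growing peptide, lies on chromosome 9 from 64173387 to 64178562 (GRCm38) and had 42746 and 42300 counts in the controls. In Ogt iKO cells it had 28979 and 29207, a log2 fold change of -0.63 (SE 0.0668). Rpl8, a protein near the catalytic centre, had 33543 and 32060 counts in the controls and 22038 and 21492 in Ogt iKO cells (-0.67). Both were clearly separated by group. Rps3, which sits where mRNA enters the small subunit, was named for its counts after the values were seen. Rps3 had 32127 and 30770 counts in the controls and 21072 and 20164 in Ogt iKO cells (-0.69).

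The 6 largest falls among members with separated groups were Rps16, Rpl13, Rpl35a, Rpl7, Rpl12 and Rpl17. Rpl35a (chromosome 16, 33056453 to 33060189) is among the genes altered in Diamond-Blackfan anaemia, an inherited failure of red cell production. It had 2185 and 2181 counts in the controls and 1288 and 1204 in Ogt iKO cells, or -0.89 on the log2 scale (SE 0.0585, adjusted p = 6.57e-06 by edgeR with Benjamini-Hochberg adjustment). Rpl7, a large subunit protein, had 9960 and 9637 counts in the controls and 5703 and 5481 in Ogt iKO cells (-0.89, SE 0.0582). Rpl13 (chromosome 8) had 713 and 665 counts in the controls and 403 and 373 in Ogt iKO cells (-0.91, SE 0.0821). In these 3 the libraries of a group lay close together beside the gap between groups.

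The other large falls rested on few counts. Rps16, a protein of the small subunit head, had 37 and 38 counts in the controls and 14 and 21 in Ogt iKO cells (-1.17, SE 0.318, edgeR adjusted p = 0.0109 with Benjamini-Hochberg adjustment). It was not called by DESeq2 (adjusted p = 0.101), without Ogt iKO replicate 1 (-0.84) or without control replicate 2 (-1.15). Rpl17, at the tunnel exit, had 105 and 139 counts in the controls and 76 and 70 in Ogt iKO cells (-0.82). Without control replicate 2 its value was -0.61 and it was not called. Over the alternatives in which they were fitted, the direction of Rps16 and Rpl17 did not change.

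Counts for structural groups within the ribosome, which were not tested against each other, stand beside 32.0% of all genes called lower (29.9% without Ogt iKO replicate 1). Of the 9 genes at the exit of the peptide tunnel, 8 were tested and 6 fell (median -0.63). Of 14 genes of the small subunit head, 13 were tested and 10 fell (median -0.60). Of 20 genes altered in Diamond-Blackfan anaemia, 18 were tested and 12 fell (median -0.60). The 5S particle, through which Rpl5 and Rpl11 hold 5S RNA and bind the p53 regulator Mdm2, had 0 of 2 called (median -0.13, and 0.0686 without Ogt iKO replicate 1). Rpl5 had 14 and 12 counts in the controls and 13 and 16 in Ogt iKO cells (0.0786), and its sign turned without Ogt iKO replicate 2 (-0.17) or control replicate 2 (-0.0301). Rpl11 had 69 and 60 counts in the controls and 49 and 58 in Ogt iKO cells (-0.35, not called). Their standard errors of 0.368 and 0.229 were wide beside the member median of -0.61. Without Ogt iKO replicate 1 the numbers that fell were 6 of 8 at the tunnel exit (median -0.61), 9 of 13 in the head with 1 higher (-0.56), 12 of 18 among the anaemia genes (-0.62), 4 of 4 in the stalk and 0 of 2 in the 5S particle.

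Members with other known roles followed the same range. Rps6, the small subunit protein phosphorylated downstream of mTORC1, had 309 and 262 counts in the controls and 238 and 209 in Ogt iKO cells (-0.43, adjusted p = 0.0158 by edgeR with Benjamini-Hochberg adjustment). Its call was lost by library totals (-0.27), by DESeq2 (-0.46) and without control replicate 1 (-0.33). Rpsa, also known as a laminin receptor, had 190 and 201 counts in the controls and 119 and 136 in Ogt iKO cells (-0.69). Rps27a, made as a fusion to ubiquitin, had 86 and 89 counts in the controls and 70 and 63 in Ogt iKO cells. Its groups did not overlap, but its log2 fold change of -0.48 missed the threshold (adjusted p = 0.0504 by edgeR with Benjamini-Hochberg adjustment). It was called lower with RLE factors (-0.49) and with GC offsets (-0.54).

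Members on chromosome X, where Ogt also lies, ranged from -0.64 to 0.70 in log2 fold change. Rps4x, a small subunit protein, had 4730 and 4342 counts in the controls and 3153 and 3096 in Ogt iKO cells (-0.62). Rpl39, a short protein of the tunnel wall, had 1019 and 887 counts in the controls and 748 and 628 in Ogt iKO cells (-0.55). Rpl10, which is added late in large subunit assembly, had 79 and 81 counts in the controls and 50 and 58 in Ogt iKO cells (-0.64). Rpl10 was called by the main test but not by library totals (-0.47), by DESeq2 (-0.67), or without Ogt iKO replicate 1 (-0.47), control replicate 1 (-0.67) or control replicate 2 (-0.63). Rpl36a had 5 and 10 counts in the controls and 13 and 13 in Ogt iKO cells. Its log2 fold change of 0.70 (SE 0.453) was not called.

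A few members did not fall, and those named in this paragraph were chosen after their values were seen. Rpl15, a core protein of the large subunit also altered in Diamond-Blackfan anaemia, lies on chromosome 14 from 18267823 to 18270986. It had 921 and 873 counts in the controls and 971 and 975 in Ogt iKO cells, or 0.0389 on the log2 scale (SE 0.0810, adjusted p = 0.692 by edgeR with Benjamini-Hochberg adjustment). Its standard error is small beside the member median of -0.61. The sign of Rpl15 was not stable: it was -0.0201 with offsets for GC content, -0.0595 without Ogt iKO replicate 2 and -0.0025 without control replicate 2, and 0.21 with a call by library totals. Rps25, a small subunit protein used by some viral entry sites, had 336 and 340 counts in the controls and 359 and 442 in Ogt iKO cells (0.17, not called). Rps25 was 0.38 and called higher without Ogt iKO replicate 1, and -0.0871 without Ogt iKO replicate 2. Of its exon length, 24.8% lay under exons of the opposite strand.

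Rpl23a, at the tunnel exit, had 24 and 21 counts in the controls and 42 and 31 in Ogt iKO cells (0.61, not called). Of its exon length, 59.7% lay under opposite-strand exons, and reads of the overlapping gene cannot be told apart if strand was not used in counting. Rpl41, the shortest ribosomal protein, had 1808 and 1880 counts in the controls and 1602 and 1662 in Ogt iKO cells (-0.25). It was the smallest fall that was called, and the call was lost by library totals (-0.0850), without Ogt iKO replicate 1 (-0.15) and without control replicate 2 (-0.23).

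The 3 members that failed the count filter were Rpl26, Rps13 and Rps29. Rpl26 had 1 count, in Ogt iKO replicate 1, and 0 in the other 3 libraries. Rps13 had 8 and 7 counts in the controls and 7 and 4 in Ogt iKO cells, and Rps29 had 5 and 6 in the controls and 5 and 4 in Ogt iKO cells. Such values give no measure of a change.

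Near-identical copies of the members were counted because reads from them may be hard to assign. The mouse genome holds many processed copies of ribosomal protein genes, and 75 of 76 members share at least 1 window of 50 bases with an annotated pseudogene. The share of a member's principal transcript found in transcripts of other genes ran from 0.0% to 98.6%. How reads mapping to several places were counted is not given in the sources used here, so the levels of members with copies are uncertain. Members with under 50% shared windows had a median of 58.0 CPM per kb (38 genes), and those with 50% or more had a median of 10.9 CPM per kb (38 genes). Rps3, with 3.0% shared, was among those of most counts. Rps27, with 98.6%, had 18 and 18 counts in the controls and 17 and 12 in Ogt iKO cells. Other members went the other way: Rps18, with 86.7% shared, had a mean of 1594.5 counts, and Rps29, with 35.8%, a mean of 5.0.

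The median log2 fold change was -0.61 both for members under and for members at or over 50% shared windows. Of the former, 31 of 37 tested fell, and of the others 23 of 36 fell. As a description over members that share libraries and depth, Spearman's rho with the shared percentage was -0.465 for level per kb (n = 76) and -0.027 for log2 fold change (n = 73). Over the 35 members of at least 1000 mean counts, rho between log2 fold change and the shared percentage was -0.359, so the more shared of these had the larger falls. Exons of 37 members overlapped those of another gene, and of the 37 tested members without such overlap, 27 fell, with a median of -0.61, beside 32.0% of all genes. The spans of 29 members hold 56 small nucleolar RNA genes on the same strand, whose place in introns was not checked. Of these members, 28 were tested and 25 fell (median -0.63). Of the 45 tested members without such a gene, 29 fell (median -0.61), against the same 32.0%.

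Sequence at the start site was compared over the 56 members with a RefSeq promoter entry. An unbroken run of at least 8 C or T bases within 20 bases of the start on the gene's strand was found in 28 members (50.0%). Over 27025 genes with an entry, 18.4% held such a run. The share was the same among 40 members that fell, 20 (50.0%), and among the other 16, 8 (50.0%). Most of those 16 had a mean under 100 counts, and Rpl26 and Rps13 among them were not tested. Their missing calls do not show that they were unaltered, so this split cannot relate the run to the change. In the sequences printed above, Rpl4, Rpl35a and Rps10, which fell, and Rpl15, which did not, all carry such a run. Rpl41, the smallest called fall, has none in its window. Rps3 (-0.69) and Rplp0 (-0.66), not printed above, also fell without such a run, their longest being 3 and 7 bases. In the 300 bases around the start, the motif CCGGAAG, on either strand, was in 41.1% of members and 9.9% of all genes. The motif TCTCGCGA, on either strand, was in 17.9% of members and 1.1% of all genes. It was in 9 (22.5%) of the 40 members that fell and 1 (6.2%) of the other 16, a split with the same limit. The motifs CACGTG, in 10.7% of members and 8.1% of all genes, and TATAAA, in 10.7% and 15.7%, were also searched on either strand. These matches describe letters in the window and were not tested against the change.

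Paralogs and other ribosome parts, which the naming rule left out, did not all follow the members. The list held 13 genes with a row in the tables, of which 12 were tested. By the same test 2 rose and 6 fell, beside 33.2% and 32.0% of all genes, and without Ogt iKO replicate 1 it was 2 and 7, beside 30.3% and 29.9%. Rpl10l, an autosomal copy of Rpl10 known for its use in the male germline, lies on chromosome 12 from 66283379 to 66284401. It had 337 and 321 counts in the controls and 971 and 962 in Ogt iKO cells, or 21.4 ± 0.599 and 59.4 ± 3.69 CPM (SD, n = 2), a log2 fold change of 1.48 (SE 0.0866). Rpl39l, the germline copy of Rpl39, lies on chromosome 16 from 10170197 to 10174911. It had 845 and 751 counts in the controls and 1998 and 1716 in Ogt iKO cells, or 51.8 ± 3.99 and 114 ± 4.41 CPM (SD, n = 2), a log2 fold change of 1.14 (SE 0.0771). Both rises were far larger than the replicate spread. Rpl39l shares no window of 50 bases with other transcripts, and Rpl10l shares 7.6%.

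The balance between copies differed by group in most of the pairs compared. Rpl39l had 0.829 and 0.847 counts for each count of Rpl39 in the controls, and 2.67 and 2.73 in Ogt iKO cells. Rpl10l had 4.27 and 3.96 counts for each count of Rpl10 in the controls, and 19.4 and 16.6 in Ogt iKO cells. Rpl10 itself had 50 to 81 counts per library and shares 92.1% of its windows with other transcripts, so the size of this ratio is uncertain. Rpl22l1, the paralog of Rpl22, went the other way with 973 and 1167 counts in the controls and 548 and 514 in Ogt iKO cells (-1.09). Its counts per count of Rpl22 were 0.139 and 0.156 in the controls and 0.113 and 0.104 in Ogt iKO cells. Each of these 3 ratios had groups that did not overlap, with an exact two-sided permutation p of 0.333. Nor did they overlap for Rpl7l1 over Rpl7 (controls 0.590 and 0.577, Ogt iKO 0.711 and 0.689) or Rps4l over Rps4x (controls 1.35 and 1.43, Ogt iKO 1.56 and 1.57). The same held for Rpl36al over the few counts of Rpl36a (controls 111 and 55.5, Ogt iKO 32.8 and 26.2). The groups of Rpl3l over Rpl3 overlapped (controls 0.0399 and 0.0313, Ogt iKO 0.0452 and 0.0241).

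**Figure D4:**
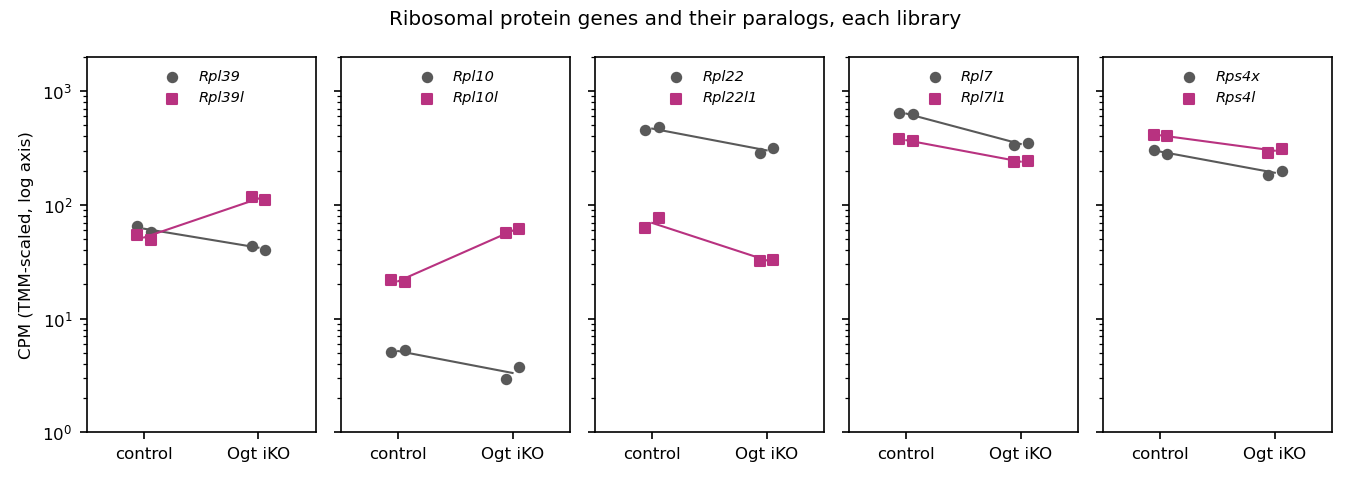
TMM-scaled CPM (log axis) of 5 ribosomal protein genes, as grey circles, and their paralogs, as magenta squares, in each library, with lines joining the group means. Rpl39l and Rpl10l rise where Rpl39 and Rpl10 fall, while Rpl22l1, Rpl7l1 and Rps4l fall with their partners.

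Among the other parts, Rack1, a scaffold protein of the small subunit head, had 38870 and 36263 counts in the controls and 28250 and 27173 in Ogt iKO cells (-0.52). Rps3a1, the mouse gene for a small subunit protein that the naming rule misses, had 2310 and 2040 counts in the controls and 1514 and 1455 in Ogt iKO cells (-0.63). The paralogs Rpl7l1 (-0.63), Rpl36al (-0.62) and Rps4l (-0.45) fell too. Rpl3l, a muscle paralog of Rpl3, had 63 and 54 counts in the controls and 49 and 25 in Ogt iKO cells (-0.75, not called). It was called lower without Ogt iKO replicate 1 (-1.23), with RLE factors (-0.76) and with the replicate number as a block (-0.78).

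Fau, whose ribosomal protein is made as a fusion to a ubiquitin-like protein, was not called. It had 93 and 158 counts in the controls and 156 and 142 in Ogt iKO cells. Its value of 0.16 became -0.18 without control replicate 1, and 0.59 with a call without control replicate 2. Rps27l, a p53-induced paralog of Rps27, had 2081 and 1836 counts in the controls and 2196 and 1884 in Ogt iKO cells (-0.0241). Its sign turned by library totals (0.15), upper quartiles (0.0176), exon length offsets (0.0357) and without control replicate 1 (0.0545). Rps27rt had 0 counts in every library.

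Genes that build the ribosome are given for comparison, from lists of textbook members, beside 32.0% lower and 33.2% higher over all genes (22.6% and 42.1% by library totals, 29.9% and 30.3% without Ogt iKO replicate 1). RNA polymerase I with its factors, which makes the precursor of ribosomal RNA, had 11 of 15 genes lower and 0 higher (median -0.48), led by Cd3eap (-1.20), Twistnb (-0.81), Polr1e (-0.80) and Polr1c (-0.78). Of 58 ribosome assembly factors 51 fell and 1 rose (median -0.48). The assembly factor Rrp9, a component of the U3 small nucleolar particle, had 2012 and 1966 counts in the controls and 464 and 447 in Ogt iKO cells (-2.21). Rcl1 (-1.21), Ebna1bp2 (-0.995) and Rrp1 (-0.85), also assembly factors, fell less than Rrp9. The share of 32.0% covers genes of all levels. It was 31.2% at a mean log2 CPM from 2 to below 6, 47.6% from 6 to below 9 and 73.4% at 9 or more. By library totals 10 of the RNA polymerase I genes fell and 2 rose, and 37 assembly factors fell and 3 rose. Without Ogt iKO replicate 1, 11 of 15 RNA polymerase I genes fell (median -0.36) and 48 of 58 assembly factors fell with 1 higher (median -0.43).

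Chaperones that hold single ribosomal proteins before assembly, and TOP mRNAs outside the ribosome, are read beside the same shares over all genes. All 4 fell under TMM (median -0.31), Bccip by most (-1.11), but only Bccip was called by library totals. Heatr3 was -0.30 and Tsr2 was -0.33. Grwd1, at -0.18, was also not called with upper-quartile scaling (-0.14), with GC offsets (-0.10), without Ogt iKO replicate 1 (-0.15) or without control replicate 1 (-0.12). Of 14 TOP mRNAs outside the ribosome, 12 fell and 0 rose (median -0.56), and by library totals 12 fell and 1 rose. These 14 summed to 15447 and 15532 CPM in the control libraries. Among all genes at high levels, 73.4% fell at a mean log2 CPM of 9 or more (median -0.37) and 47.6% from 6 to below 9. The elongation factor subunits Eef1g (-1.13) and Eef1d (-1.03), the initiation factor Eif4b (-0.81) and the elongation factor Eef2 (-0.76) had the smallest adjusted p among these. Without Ogt iKO replicate 1, 3 of the 4 chaperones fell (median -0.28), and of the TOP mRNAs 12 fell and 1 rose (median -0.52).

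Of 17 genes of the mTORC1 pathway and TOP regulation, 7 rose and 8 fell (median 0.13), beside 33.2% higher and 32.0% lower over all genes. Eif4ebp1, a repressor of translation that mTORC1 inactivates, fell (-0.84), and so did the mTORC1 inhibitor Deptor (-0.87). The ribosomal protein S6 kinase gene Rps6kb1 (0.50) and the mTORC1 inhibitor Akt1s1 (0.70) rose. By library totals 9 of the 17 were higher and 3 lower, beside 42.1% and 22.6% of all genes, and without Ogt iKO replicate 1 it was 6 and 6, with a median of 0.0580.

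The separate ribosome of mitochondria gave a smaller difference. Of 78 mitochondrial ribosomal protein genes 77 were tested, 56 fell and 2 rose (median -0.39), beside 32.0% and 33.2% of all genes. Their share of counts was 0.521% and 0.501% in the controls and 0.421% and 0.448% in Ogt iKO cells, a ratio of 0.850 beside 0.725 for the cytosolic genes. By library totals 40 fell and 5 rose, beside 22.6% and 42.1%. Most of these genes lay at a mean log2 CPM from 2 to below 9. Under TMM, 31.2% of all genes fell from 2 to below 6 and 47.6% from 6 to below 9. Leaving out Ogt iKO replicate 1 gave 52 that fell and 4 that rose (median -0.36), beside 29.9% and 30.3%. The difference between the cytosolic and mitochondrial sets was not tested.

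**Figure D5:**
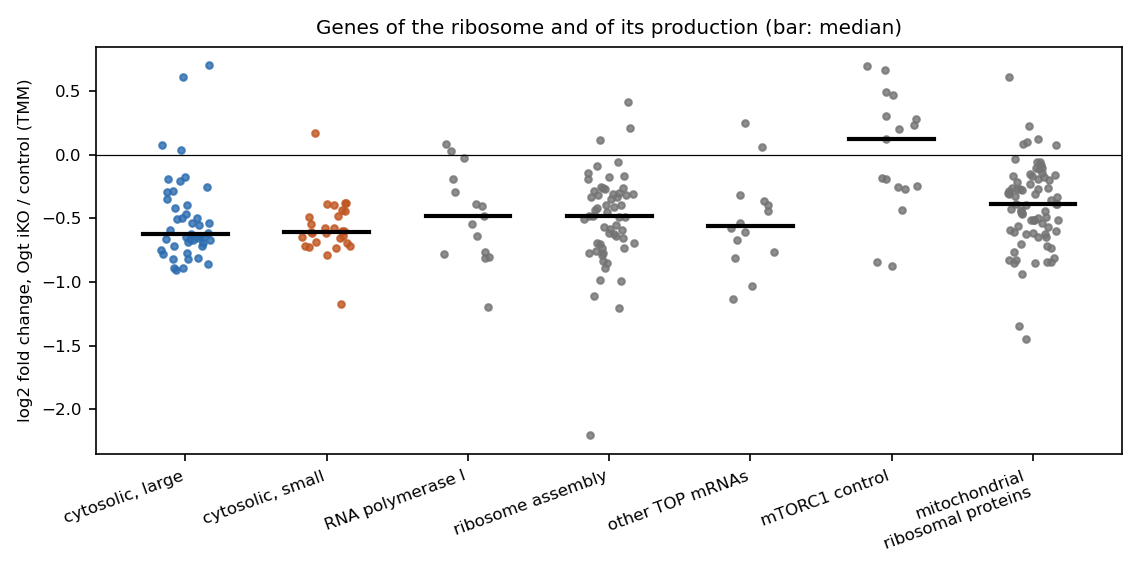
Log2 fold change (Ogt iKO over control, TMM) of each tested gene in 7 lists, with the list median as a bar. Medians are -0.63 and -0.60 for the large and small cytosolic subunits, -0.48 for RNA polymerase I and for ribosome assembly, -0.56 for other TOP mRNAs, 0.13 for mTORC1 control (0.0580 without Ogt iKO replicate 1, not drawn) and -0.39 for mitochondrial ribosomal proteins.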

How the data were processed

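RNA from 4 mouse embryonic stem cell libraries, made with a stranded Illumina mRNA kit per the labels' protocols, was analysed. For each library the authors deposited a table of raw counts per gene symbol, with no normalization. STAR, Picard and mm10 are named in the submitters' processing notes. The aligner's version, the annotation, the strand counted and the treatment of reads mapping to several places are not given in the sources used here.

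All 4 libraries entered a single quasi-likelihood fit without covariates (edgeR 4.0.16, R 4.3.3), with TMM factors and the genes that filterByExpr kept. The Benjamini-Hochberg adjustment covered 14525 genes, and calls use an adjusted p under 0.05. CPM are counts per 1000000 with TMM-scaled totals, except shares and summed markers, which use raw totals. Standard errors were derived from each fold change and its F statistic. The fit was also run on simulated counts, and the outcome is not reported here. Gene models, exon overlaps and shared windows of 50 bases came from a GENCODE annotation of GRCm38, and promoters from RefSeq (GRCm38.p6), with entries for 56 of 76 members. Totals of 14668489 to 16504204 counts limit members of few counts.

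The members and lists were chosen with earlier results of these data known. Genes named are those of the largest called change with groups that do not overlap (6 each way), the 4 members highest per kb of exon, members that fail the filter, fixed members (stalk, 5S particle, Rps6, Rpsa, Rps27a, chromosome X), the listed paralogs and parts, and up to 4 of each other list with the smallest adjusted p. Not every gene this rule names is reported here. Others are said to be chosen after their values were seen. Alternatives were library totals, RLE and upper-quartile factors, TMM without the members, DESeq2 1.42.0, other filters and thresholds, a replicate block, exon length and GC offsets (loess, span 0.4), members without overlapping exons, and leaving out each library.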

Additional observations from a re-analysis of the deposited data

How the results depend on the processing

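Over 25 named members and 14 alternative fits, 321 of 348 values kept their direction and their side of the threshold, 15 lost a call, 6 gained one and 6 turned sign. Leaving out each library in turn gave 48 to 55 members lower (large 26 to 32, small 20 to 23) and 0 to 1 higher (small 0 to 1). The medians then ran from -0.65 to -0.55 (large -0.65 to -0.58, small -0.65 to -0.55). Such fits leave a group with 1 library, which is assumed to vary like the others. Library totals gave 2 higher, both large, and medians of -0.44 (all), -0.46 (large) and -0.44 (small). Among members with no overlapping exon 27 fell (large 14, small 13), and among those of at least 1000 mean counts, a set chosen after seeing the data, 35 fell (large 18, median -0.68). Both sets hold fewer members by construction. Without the 100 genes of most counts the difference in share was -0.280 percentage points. The sign turned for Rpl5 (-0.17 without Ogt iKO replicate 2, -0.0301 without control replicate 2, 0.29 at the highest), Rps25 (-0.0871 without Ogt iKO replicate 2 to 0.38 without replicate 1) and Fau (-0.18 without control replicate 1 to 0.59 without replicate 2). It turned for Rpl15 with GC offsets (-0.0201), without Ogt iKO replicate 2 (-0.0595, against 0.12 without replicate 1) and without control replicate 2 (-0.0025). It turned for Rps27l by library totals (0.15), upper quartiles (0.0176), exon length offsets (0.0357) and without control replicate 1 (0.0545, against -0.12 without replicate 2). No value whose sign had turned was called, and the cause was not tested. With the replicate number as a block 54 members fell, with a median of -0.61, and no member's call changed. Deviations of same-numbered libraries correlated at 0.086 over 2 pairs, too few to show a pairing, and the labels state none.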
